A study of Mus musculus with 4 samples.

Results

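The Slc25 genes of the mouse encode the mitochondrial carrier family, and every gene row whose symbol starts with Slc25a was taken as a member. There were 42 such rows among 15409 gene rows. Of these, 41 had a mean of at least 1 CPM (counts-per-million, reads scaled to a common library total) over the libraries and were tested. The exception was Slc25a43, with 16, 16, 27 and 24 reads in the 4 libraries. The GENCODE M21 annotation holds 47 coding genes with such symbols. Of these, Slc25a2, Slc25a31, Slc25a41, Slc25a48 and Slc25a54 are not analysed here.

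Mitochondrial carriers sit mostly in the inner mitochondrial membrane, where each moves a small solute that the membrane would otherwise hold back. ADP and ATP, phosphate, amino acids, the acids of the citrate cycle, nucleotides, cofactors and iron pass in this way. The proteins are built from repeats of a pair of membrane helices. Each repeat carries a signature of a proline, an acidic residue and a basic residue that closes the carrier on its matrix side. In brain the family is known for exchanging ATP with ADP in neurons and for passing the aspartate and glutamate of the malate-aspartate shuttle.

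RNA was measured in 4 libraries of septal brain tissue, 2 from TCRb-/- mice, named for the deleted T cell receptor beta gene, and 2 from wild-type (WT) mice. Replicate 1 of both genotypes came from experiment 1 and replicate 2 of both from experiment 2, and each library pooled tissue from 4 to 5 mice. The mice of all 4 pools had been restrained for 30 min daily over 3 days, and tissue was taken 1.5 h after the final session, so the 4 libraries include no unstressed mice. The labels state no sex, age or strain background. RNA came from a homogenate cleared by centrifugation before and after detergent was added, and complementary DNA was made with a kit for very small RNA inputs. The comparison between genotypes asks how septal RNA after this stress differs with the T cell receptor genotype.

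The libraries held 19988137 to 26210790 reads, and 1 read was worth 0.0382 to 0.05 CPM. Trbc2, a constant region of the receptor's beta chain, had 0 and 0 reads in the TCRb-/- libraries and 169 and 86 in the WT libraries, which matched the labels. Of 11 septal marker genes 10 were listed, with a summed level of 399 to 471 CPM in the 4 libraries, and Drd3 was not listed. The experiments differed in markers of neighbouring tissue. Summed choroid plexus markers were at 2128 and 1297 CPM in experiment 1 (TCRb-/- first, then WT) and at 6860 and 4167 CPM in experiment 2. Thalamus markers were also higher in experiment 2 (5 of 8 called, median 0.91). Striatal and cortex or hippocampus markers were lower there, with values given beside Slc25a37. The genotypes differed in such markers too. All 10 choroid plexus markers were higher in TCRb-/- (median difference TCRb-/- minus WT 0.64). For striatal markers that median was 0.19 in experiment 1 and -1.32 in experiment 2. For thalamus markers it was -0.05 and 0.71. The part of neighbouring tissue in the genotype differences of the members was not tested. Because each library is a pool and the labels name no separate animals, p-values measure only the spread between these pools.

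The signature shows what joins the members, so it was read as codons in the principal coding transcript of each gene (the longest coding one where none is marked). A match was a proline codon, any codon, a codon of aspartate or glutamate, any 2 codons and then a codon of lysine or arginine, in the reading frame. At least 3 matches were found in 25 of 42 members (59.5%) and in 2.23% of 21567 other coding genes, and at least 1 match in 39 members (92.9%) and 26.3% of other genes. Slc25a46, Slc25a51 and Slc25a53 had none. The matches are printed for the ADP/ATP carriers, which are among the highest members in level, and for some members whose differences are described later. Capitals mark the proline, acidic and basic codons. In Slc25a4 and Slc25a5 the matches lie at the same coding bases, 82 to 99, 397 to 414 and 688 to 705, counted from the A of the start codon.
Slc25a4 first match: CCGatcGAGagggtcAAA
Slc25a4 second match: CCGctgGACtttgctAGG
Slc25a4 last match: CCGtttGACactgttCGT
Slc25a5 first match: CCCatcGAGagggtcAAG
Slc25a5 second match: CCTcttGATtttgccCGT
Slc25a5 last match: CCTtttGACacggttCGC
Slc25a39 first match: CCCctgGATgtggtgAAG
Slc25a39 second match: CCCttgGAGctcgtgCGG
Slc25a39 last match: CCCttcGATgtggtgAAG
Slc25a18 first match: CCCattGACcttgccAAG
Slc25a18 second match: CCCatgGAAatgctcAAG
Slc25a18 last match: CCTctgGATgttctgAAG
Slc25a37 first match: CCGgtgGACtccgtgAAG
Slc25a37 second match: CCAgcaGAAgtggtgAAA
Slc25a37 last match: CCGctgGACgtctgcAAA
Slc25a44, its 1 match: CCCatgGATgtcatcAGA
Slc25a34, its 1 match: CCCctgGAAgtggtaAAG

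The search fixed the kinds of residue in capitals, while the codons that spell them vary between members. The sequences are from GENCODE M21 on the GRCm38 build (mm10), and a match in the reading frame is a description of letters only.

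The family took 5884, 6589, 5954 and 6509 CPM in TCRb-/- replicate 1, TCRb-/- replicate 2, WT replicate 1 and WT replicate 2, an order kept for all values below. That was 0.588%, 0.659%, 0.595% and 0.651% of the reads. The 2 libraries of experiment 2 were the higher ones, and the genotypes overlapped. The share was uneven within the family. Slc25a4 alone took 25.1% to 27.2% of the family's reads, Slc25a3 took 13.7% to 15.1%, and the 5 members with the most reads took 60.1% to 63.7%. At the other end, 10 members had a mean under 10 CPM.

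Levels can be compared between genes only per length, so the mean CPM was divided by the length of each gene's merged exons in kilobases. On that scale 6 members were above 100 CPM per kb. Slc25a4, the ADP/ATP exchanger of heart, muscle and brain, led at 847, followed by Slc25a3, the phosphate carrier, at 462 and Slc25a5, a second ADP/ATP exchanger, at 358. Slc25a11, which exchanges oxoglutarate for malate, stood at 244 CPM per kb. Slc25a39, the glutathione carrier, stood at 187 and Slc25a22, which brings in glutamate with a proton, at 166. A break followed, since the next member, the citrate carrier Slc25a1, was at 68.4 CPM per kb. The lowest levels per kb were those of Slc25a43 (0.8), Slc25a24 (0.687) and Slc25a21 (0.478).

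**Figure D1:**
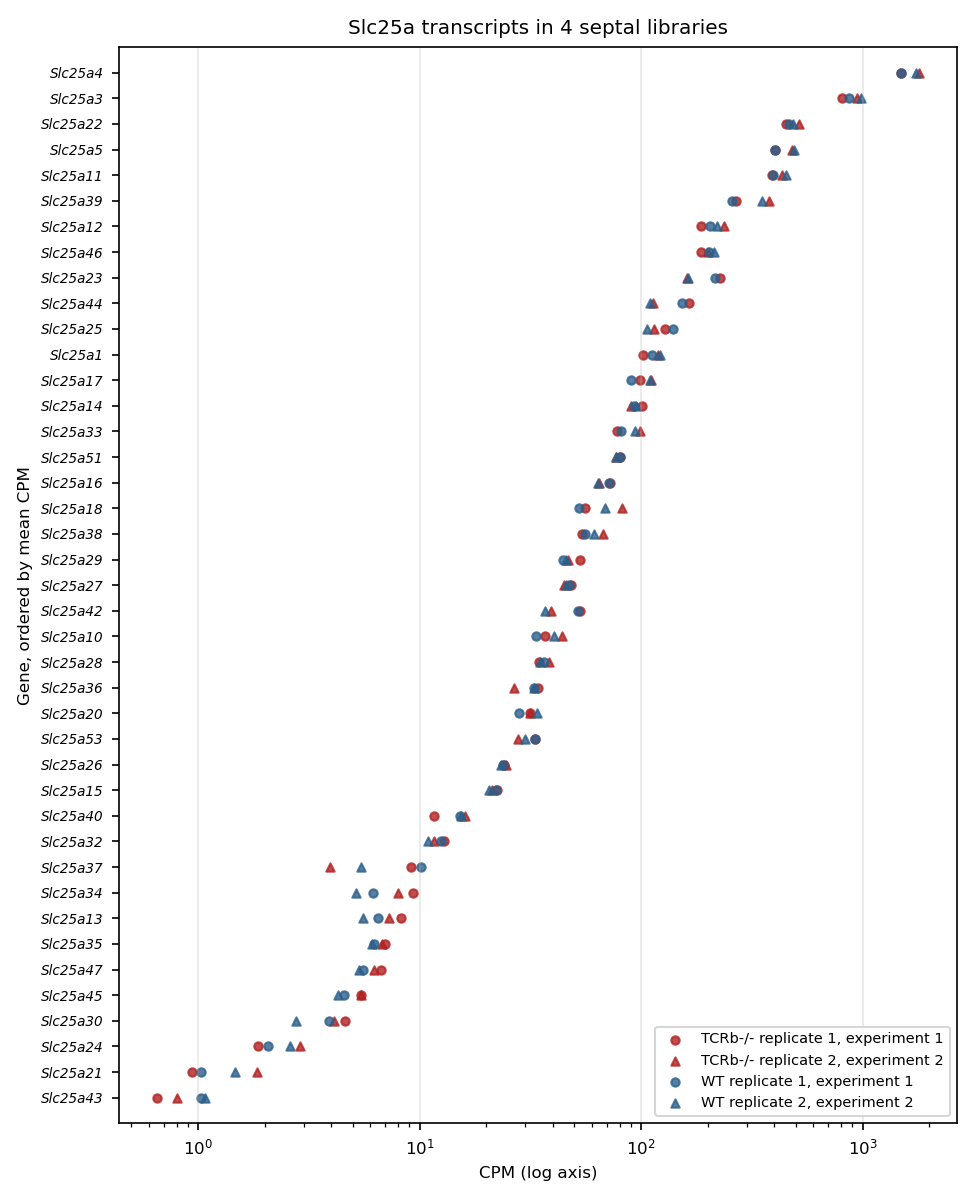
Level of 41 of the 42 Slc25 members in each of the 4 libraries, in CPM on a log axis, with members ordered by mean CPM and points coloured by genotype and shaped by experiment. The points of a member lie close together against the spread between members, from Slc25a4 at 1489 to 1795 CPM down to Slc25a43 at 0.651 to 1.07 CPM.

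Among the exchangers of energy phosphates, Slc25a4 was at 1489, 1795, 1497 and 1738 CPM. Its gene lies on chromosome 8 from 46206797 to 46211284 on the minus strand. Slc25a5, on chromosome X from 36795651 to 36798807, was at 401, 482, 402 and 492 CPM. Slc25a3 was at 804, 947, 864 and 981 CPM. In all of these, both libraries of experiment 2 were above both of experiment 1, and the genotypes overlapped. Slc25a5 has many near copies in the genome: 33.8% of the 50-base windows along its exons also occur in other annotated genes, among them the pseudogene Slc25a5-ps, so its counts are uncertain in a way that those of Slc25a4 (0 such windows) are not.

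The calcium-regulated carriers of ATP-Mg and phosphate carry calcium-binding domains outside the membrane. Slc25a23 was at 227, 161, 216 and 163 CPM and Slc25a25 at 128, 115, 140 and 106 CPM, both lower in experiment 2 than in experiment 1. Slc25a24, from the same subfamily, was at only 1.87, 2.9, 2.06 and 2.59 CPM and was higher in experiment 2. The uncoupling-protein-like members of brain, Slc25a14 and Slc25a27, ranged from 90.2 to 101 CPM and from 45.1 to 48.1 CPM, and their groups overlapped between experiments for Slc25a14 but not for Slc25a27. Slc25a30, of the same branch, was at 4.6, 4.1, 3.89 and 2.77 CPM.

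The aspartate-glutamate exchangers of the malate-aspartate shuttle were uneven. Slc25a12 (aralar), the form known from brain and muscle, was at 187, 237, 204 and 221 CPM and at 33.4 CPM per kb. Slc25a13 (citrin), the form known from liver, was at 8.22, 7.25, 6.49 and 5.55 CPM and at 2.2 CPM per kb. Slc25a11, the shuttle's oxoglutarate-malate exchanger, was at 392, 431, 393 and 453 CPM. Of the glutamate carriers, Slc25a22 was at 451, 515, 466 and 484 CPM. Slc25a18, its close relative, which is enriched in astrocytes, was at 55.7, 81.9, 52.7 and 69.1 CPM.

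Carriers of other amino acids included Slc25a44, a transporter of branched-chain amino acids, at 164, 114, 154 and 110 CPM. Slc25a38, the glycine carrier that feeds haem synthesis, was at 54, 67.2, 55.9 and 61.4 CPM. Slc25a29, a carrier of basic amino acids, was at 53.2, 46.8, 44.6 and 45.8 CPM, and Slc25a15, the ornithine carrier of the urea cycle, at 20.5 to 22.5 CPM. Slc25a1 was at 102, 119, 112 and 122 CPM and Slc25a10, the dicarboxylate carrier, at 36.8, 43.8, 33.5 and 40.6 CPM. Slc25a20, which brings acylcarnitines in for fat oxidation, was at 28 to 34 CPM, and Slc25a21, an oxodicarboxylate carrier, was near the lower limit at 0.935 to 1.85 CPM.

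Among nucleotide and cofactor carriers, Slc25a17, the peroxisomal member, was at 98.8, 110, 90.1 and 110 CPM. Slc25a33, a pyrimidine nucleotide carrier, was at 77.6, 99.4, 81.5 and 93.8 CPM, whereas Slc25a36, another, was at 34.3, 26.7, 32.9 and 32.9 CPM. Slc25a42, which carries coenzyme A, was at 53, 39.4, 51.7 and 36.8 CPM. Slc25a51 (NAD), Slc25a16, Slc25a26 (S-adenosylmethionine) and Slc25a32 (linked to folate and FAD) are given as ranges. These were 77.1 to 80.6, 64 to 72.3, 23.3 to 24.6 and 11 to 12.9 CPM in that order. In Slc25a51, Slc25a16 and Slc25a32 both libraries of experiment 2 were below both of experiment 1, though none of them passed the test described below.

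The mitoferrins bring iron into mitochondria. Slc25a28 (mitoferrin 2), the broadly expressed form, was at 34.8, 38.2, 36.4 and 35 CPM. Slc25a37 (mitoferrin 1), the form known from red cell precursors, was at 9.15, 3.95, 10.2 and 5.46 CPM. Of the glutathione carriers, Slc25a39 was at 269, 377, 258 and 353 CPM and its relative Slc25a40 at 11.6, 16, 15.3 and 15.4 CPM. The remaining members include Slc25a46, an outer-membrane protein that acts in mitochondrial shape and lipid traffic, at 186, 201, 202 and 213 CPM. Slc25a53 was at 27.8 to 33.3 CPM, and Slc25a34, Slc25a35, Slc25a45 and Slc25a47 were at 4.29 to 9.35 CPM.

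No member passed the test between TCRb-/- and WT, and no member differed by more than 0.54 on the log2(CPM + 1) scale. By limma with Benjamini-Hochberg adjustment over 13912 genes, 0 of 41 members and 0 of all genes (0.0%) were called at an adjusted p of 0.05. With the experiment as a replicate block, 2 genes were called (0.0144%), Trbc2 and Ttr, and again 0 members. At an unadjusted p under 0.05 the count was 1 of 41 members (2.44%) and 43 of all genes (0.309%) without the block, and 1 member and 784 genes (5.64%) with it. The median difference (TCRb-/- minus WT) was 0.029 over the members and 0.001 over all genes tested. Within an experiment, the SD of the genotype difference over the members was 0.151 and 0.167, against 0.204 and 0.234 over all genes.

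The member with the low unadjusted p was Slc25a34, a carrier of unsettled substrate on chromosome 4 from 141618824 to 141623821. It was at 9.35 and 7.95 CPM in the TCRb-/- libraries and at 6.18 and 5.14 CPM in the WT libraries. The groups did not overlap, and the TCRb-/- library was 1.51-fold and 1.55-fold higher in experiments 1 and 2. The difference was 0.54 ± 0.196 (log2 scale, SE, n = 2 against 2, limma unadjusted p = 0.0378, adjusted p = 1). With the replicate block the SE was 0.144 (limma unadjusted p = 0.00605, adjusted p = 0.848). Over the other settings the adjusted p of Slc25a34 ranged from 0.847 to 1, so it did not pass the test across all genes. The SEs of genotype differences given below are from the fit without the block, whose spread also holds the difference between experiments.

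Groups that did not overlap were counted next. In 8 of 41 members (19.5%, background 9.76%) both TCRb-/- libraries were above both WT libraries, and in 1 (2.44%, background 8.04%) both were below. Higher were Slc25a34, Slc25a13, Slc25a30, Slc25a45, Slc25a47, Slc25a29, Slc25a35 and Slc25a26, and 6 of these were among the 9 tested members with a mean under 10 CPM. Of all 4091 genes with a mean under 10 CPM, 14.4% had such values, and of the 9821 genes at or above it, 7.84%. Slc25a46 was the member that was lower in both, at 186 and 201 CPM against 202 and 213, with a difference of -0.10 ± 0.121 (SE). Slc25a43, which was not tested, was at 0.651 and 0.8 CPM in TCRb-/- and at 1.03 and 1.07 CPM in WT. Its exact binomial 95% intervals, which cover counting error only, overlap (0.372 to 1.06 and 0.458 to 1.3 against 0.679 to 1.5 and 0.688 to 1.6 CPM).

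Citrin, Slc25a13, had the next largest of these differences, 0.32 ± 0.188 (SE, limma adjusted p = 1; 0.848 with the block), and Slc25a30 followed at 0.31 ± 0.221. Slc25a45 was at 5.45 and 5.45 CPM in the TCRb-/- libraries and at 4.54 and 4.29 CPM in the WT libraries, a difference of 0.25 ± 0.181 (SE, limma adjusted p = 1; 0.887 with the block). None of the 3 passed the test. The sign of the difference was the same in both experiments for 25 of 41 members (61.0%) and for 51.6% of all genes. Over the members the genotype difference ran with the GC content of the transcript at a Spearman rho of 0.328 (n = 41), beside 0.243 over all genes tested with an annotation. These points share the same 4 libraries, and the part of GC content was not tested.

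**Figure D2:**
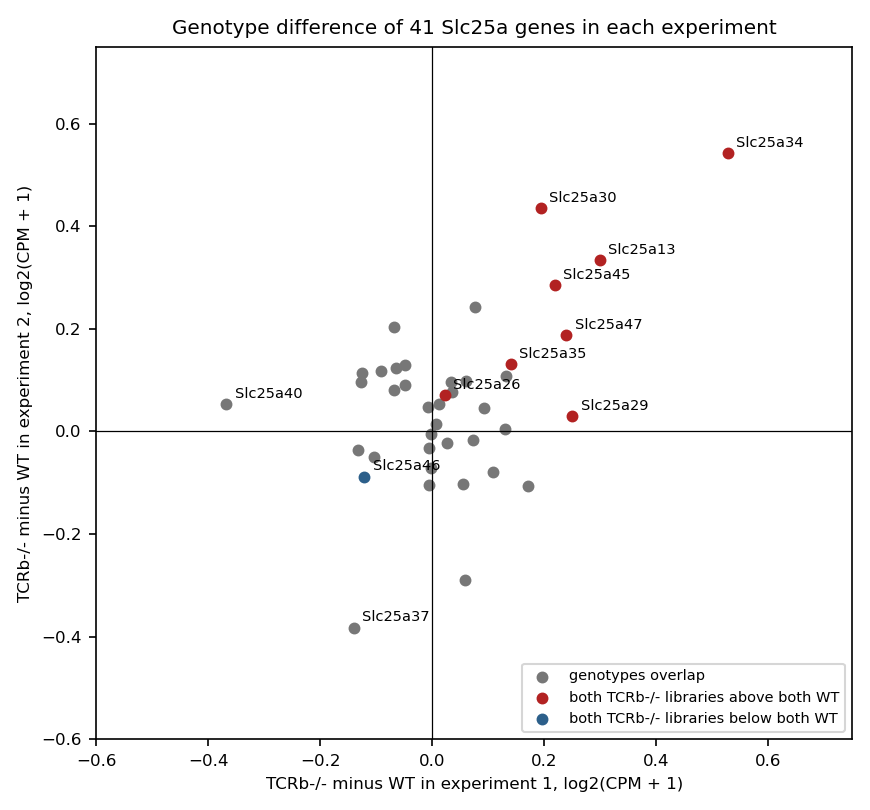
Difference TCRb-/- minus WT of each tested member in experiment 1 (horizontal axis) against experiment 2 (vertical axis), both on the log2(CPM + 1) scale, with each point 1 gene. Slc25a34 lies farthest out in the upper right at 0.53 and 0.54, and most members lie close to 0 on both axes.

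More members were called between experiments than between genotypes. Between experiment 2 and experiment 1, 10 of 41 members (24.4%) were called by limma, a share near the 23.7% of all genes (3292 of 13912). Higher in experiment 2 were 5 members (12.2%, background 8.95%): Slc25a39, Slc25a18, Slc25a5, Slc25a33 and Slc25a4. Lower were also 5 (12.2%, background 14.7%): Slc25a37, Slc25a44, Slc25a42, Slc25a23 and Slc25a25. With genotype as a second term the count was again 10 (background 24.7%), and the same 10 members were called. Both libraries of experiment 2 lay above both of experiment 1 in 16 members (39.0%, background 30.1%) and below in 13 (31.7%, background 37.2%). The experiments are labelled as batches and differ in their mice and libraries, which cannot be told apart, and in bulk tissue fewer cells of a type and less RNA per cell cannot be told apart either.

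Slc25a39, on chromosome 11 from 102402985 to 102407946, was at 269 and 258 CPM in experiment 1 and at 377 and 353 CPM in experiment 2. That was 1.40-fold higher in the TCRb-/- pair and 1.37-fold in the WT pair, and the difference was 0.47 ± 0.0661 (SE, limma adjusted p = 0.00619). Slc25a18, on chromosome 6 from 120773578 to 120794336, rose from 55.7 to 81.9 CPM in TCRb-/- and from 52.7 to 69.1 CPM in WT, by 0.47 ± 0.0947 (limma adjusted p = 0.0144). A list of astrocyte markers, summed at 2723 and 2483 CPM in experiment 1 and 2693 and 2512 CPM in experiment 2, stood beside it with a median difference of 0.04, 0 genes called higher and 1 lower (Slc1a2).

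The ADP/ATP carriers rose less. Slc25a5 rose by 0.28 ± 0.0607 (limma adjusted p = 0.0176), which was 1.20-fold in TCRb-/- and 1.22-fold in WT. Its call held in 8 of 11 other settings with all libraries (limma adjusted p 0.0133 to 0.335). The call was lost when TCRb-/- replicate 2 or WT replicate 2 was left out. Slc25a4 rose by 0.24 ± 0.0711 (adjusted p = 0.044, 1.21-fold and 1.16-fold). That call held in 4 of 11 other settings with all libraries (adjusted p 0.0298 to 0.383), was lost when any 1 of the 4 libraries was left out, and the difference was 0.099 with quantile normalization. Slc25a3, which supplies phosphate to the same ATP synthesis, differed by 0.21 with an adjusted p of 0.0665, and aralar, Slc25a12, by 0.23 with an adjusted p of 0.055, so neither was called. Slc25a33, on chromosome 4 from 149744036 to 149774277, rose by 0.28 ± 0.0705 (adjusted p = 0.0285). Its call held in 8 of 11 other settings with all libraries (limma adjusted p 0.0201 to 0.17). The call was lost when TCRb-/- replicate 1, TCRb-/- replicate 2 or WT replicate 1 was left out.

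Of the 5 that fell, Slc25a37 had the largest difference. Mitoferrin 1, on chromosome 14 from 69241848 to 69285112, was at 9.15 and 10.2 CPM in experiment 1 and at 3.95 and 5.46 CPM in experiment 2, a ratio of 0.432 in TCRb-/- and 0.536 in WT. The difference was -0.91 ± 0.173 (SE, limma adjusted p = 0.0118). Its relative mitoferrin 2 kept to 34.8 to 38.2 CPM. Striatal markers fell in the same libraries: 8 of 8 tested were called lower, their median difference was -1.60, and their sum was 3828 and 3402 CPM in experiment 1 and 847 and 1884 CPM in experiment 2. Of 8 cortex and hippocampus markers 6 were called lower, with a median of -0.998 and sums of 687 and 722 CPM in experiment 1 and 338 and 424 CPM in experiment 2. Alas2, an enzyme of red cell precursors and the only listed gene of 7 blood markers, was at 3.74, 2.2, 2.98 and 2.5 CPM. The part of any of these in the fall of Slc25a37 was not tested.

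Slc25a44, on chromosome 3 from 88410498 to 88425139, fell to 114 and 110 CPM in experiment 2 from 164 and 154 CPM, a difference of -0.50 ± 0.0668 (SE, limma adjusted p = 0.00565). Slc25a23, on chromosome 17 from 57043711 to 57059863, had a difference of -0.45 ± 0.0628 (adjusted p = 0.00602), and Slc25a42, on chromosome 8 from 70184340 to 70212305, one of -0.45 ± 0.0806 (adjusted p = 0.01). Slc25a25, on chromosome 2 from 32414487 to 32451445, fell least, at -0.28 ± 0.0756 (adjusted p = 0.0344). Its call held in 6 of 11 other settings with all libraries (limma adjusted p 0.033 to 0.216). The call was lost when WT replicate 1 or WT replicate 2 was left out. Thus 2 of the 3 calcium-regulated ATP-Mg/phosphate carriers fell, while the third, Slc25a24, did not pass the test. The direction was the same in both genotypes for 35 of 41 members (85.4%) and for 77.3% of all genes.

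**Figure D3:**
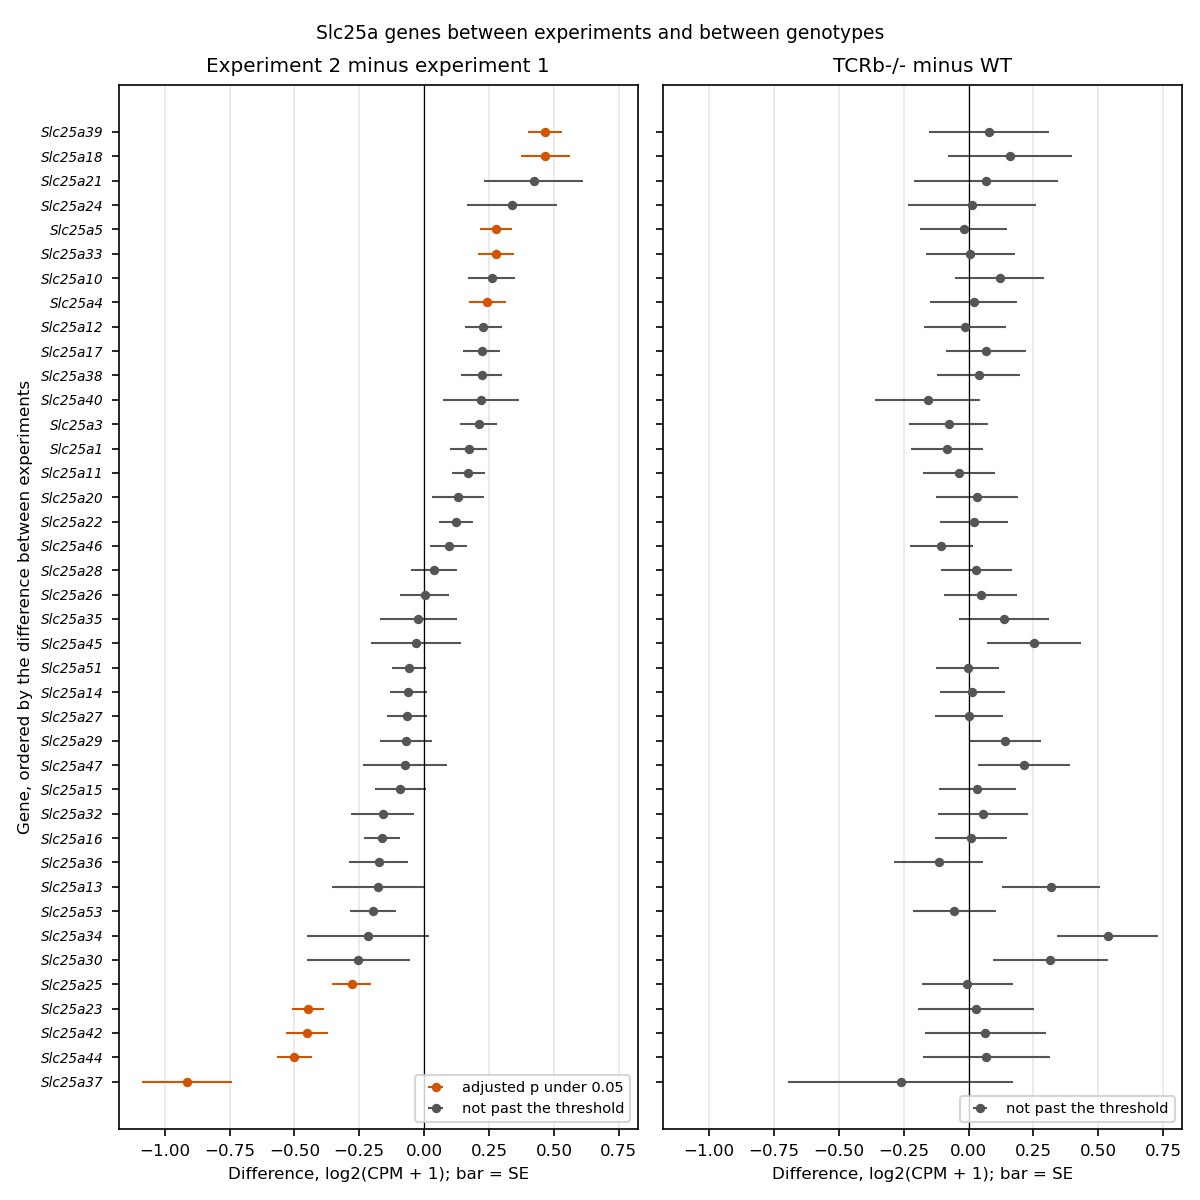
Difference of 40 of the 41 tested members between genotypes and between experiments, on the log2(CPM + 1) scale, with bars for the standard error. Coloured points mark the 10 members called between experiments, from Slc25a37 at -0.91 to Slc25a39 at 0.47, and no member is called between genotypes.

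Some called members overlap, by exon, a gene on the opposite strand, and whether counting used strand is not stated. These are Slc25a25 with Naif1 (379 bases), Slc25a33 with Gm13068 (281 bases), Slc25a23 with Gm17168 (142 bases) and Slc25a37 with Gm27223 and Gm31748 (473 bases). Among members whose genotype groups did not overlap, Slc25a35 shares exon bases with Rangrf (820 bases) and Slc25a26 with Lrig1 (139 bases) in this way. So does Slc25a46 with B930094E09Rik (374 bases). The counts of all these members are uncertain to that extent. Leaving out WT replicate 1 lowered the number of calls among members and among all genes, with the counts given in the last section. The calls of Slc25a4, Slc25a18, Slc25a25, Slc25a33 and Slc25a37 were then lost. Without limma's mean-variance trend 2 of 41 members were called, Slc25a37 and Slc25a44, beside 629 of 13912 genes. With median-of-ratios scaling 8 members were higher and 4 lower, beside 1543 and 1764 of 13912 genes. Among all genes the higher share of calls moved from 37.8% to 50.6% with quantile normalization.

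By role, the exchangers of adenine nucleotides and phosphate had a median of 0.24 over 3 members, with 2 called higher and 0 lower. The aspartate and glutamate carriers had a median of 0.18 over 4 members, with 1 higher, Slc25a18. The carboxylate and acylcarnitine carriers had a median of 0.17 over 5 members with 0 calls. The calcium-regulated group had a median of -0.28 (3 members, 0 higher and 2 lower), and the carriers of other amino acids one of -0.08 (4 members, 1 lower, Slc25a44). Nucleotide and cofactor carriers split, with Slc25a33 higher and Slc25a42 lower among 9 members (median -0.09), as did the iron, manganese and glutathione group, with Slc25a39 higher and Slc25a37 lower among 4. The uncoupling-like members (3, median -0.07) and the outer-membrane or unassigned members (6 tested, median -0.05) had 0 calls. Over all genes the median was -0.030, and 8.95% were called higher and 14.7% lower, so with 3 to 9 members a role these counts are a description.

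Length, taken as the merged exons of a gene, separated the called members. The 5 higher members had 1240 to 1925 bases (median 1887) and the 5 lower ones 3196 to 4174 bases (median 3578), ranges that do not overlap. The called genes as a whole showed the same order, with a median of 1835.5 bases for those higher in experiment 2 and 4962 bases for those lower. Across the 41 members the Spearman rho of the experiment difference with length was -0.514, and over 13552 genes it was -0.459. The genotype difference gave -0.159 and -0.139. Of the 16 members under 2000 bases, 5 were called higher and 0 lower, beside 690 and 79 of all 3035 such genes. Of the 14 members of at least 2000 and under 3500 bases, 0 were called higher and 2 lower, beside 337 and 330 of 4075 genes. Of the 11 members at or above 3500 bases, 0 were called higher and 3 lower, beside 183 and 1588 of 6442 genes. These correlations are across genes of the same 4 libraries and are a description.

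The trend on that length over all genes was then removed, a step chosen after seeing the data. In that fit 7 of 41 members and 1813 of 13552 genes were called. Slc25a18, Slc25a39, Slc25a23, Slc25a37, Slc25a42 and Slc25a44 were called with and without this step. Slc25a4, Slc25a5, Slc25a25 and Slc25a33 were no longer called, and Slc25a12 was, at 0.44 (limma adjusted p = 0.0144, with 0.0104 to 0.155 over its other settings).

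**Figure D4:**
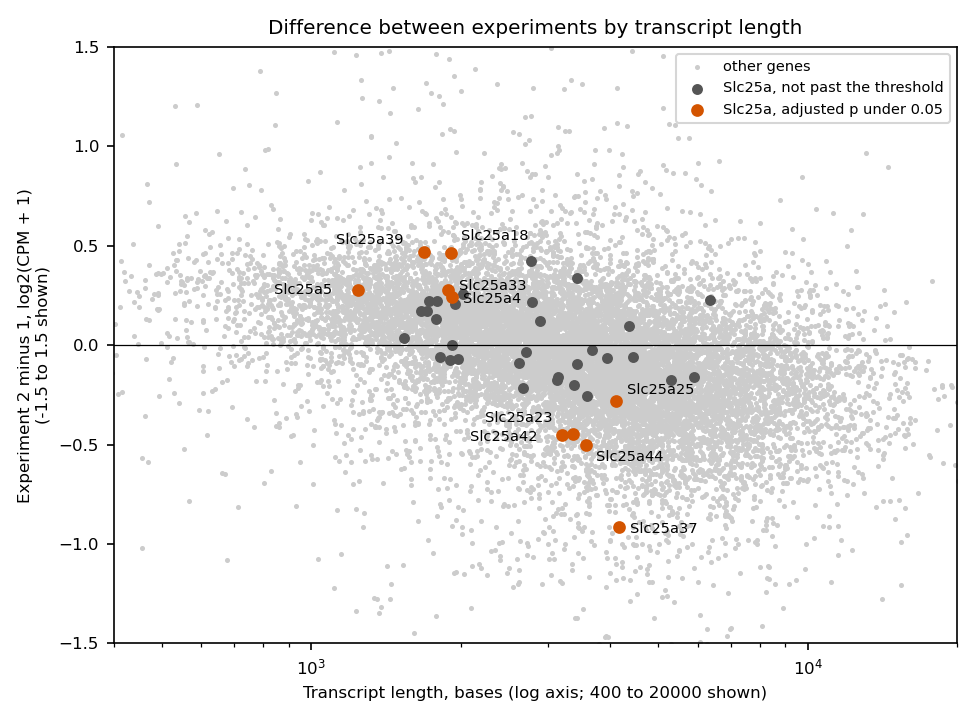
Experiment difference (experiment 2 minus 1, log2(CPM + 1) scale) of each tested member against its merged exon length in bases on a log axis, with called members in orange, other members in dark grey and all other genes in light grey. Members called higher lie at 1240 to 1925 bases and members called lower at 3196 to 4174 bases.

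Motifs of factors known to act on mitochondrial genes, and the CRE, were then looked for in promoters. Of the 42 members, 33 matched an entry in RefSeq's promoter table for GRCm38.p6, and the 250 bases before the start were searched on both strands. The motif of NRF-1, a regulator of mitochondrial genes, was in 1 of 33 (Slc25a3, 3.03%, against 8.33% of 11383 listed genes). The GABPA motif CCGGAAGT was in 1 (Slc25a20, 3.03%, against 5.82%), and neither the ERR motif TCAAGGTCA (0.334% of listed genes) nor the YY1 motif AAGATGGCG (1.23%) was in any. The CRE motif TGACGTCA, to which the CREB family binds, was in 2 members (6.06%, against 2.98%), Slc25a25 and Slc25a36. Slc25a25 was called lower in experiment 2 and Slc25a36 was not called, and the part of the motif in either was not tested. The Slc25a25 window lies inside the annotated gene, which runs to 32451445, so it precedes an internal start whose use was not tested. Both windows (GRCm38.p6, minus strand, chr2:32424184-32424241 and chr9:97111170-97111227) are printed with the motif in capitals.
Slc25a25: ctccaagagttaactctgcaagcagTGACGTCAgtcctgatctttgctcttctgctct
Slc25a36: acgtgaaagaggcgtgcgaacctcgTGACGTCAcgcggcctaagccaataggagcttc

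The share of members with each motif was small, and no match says only that these letters are not in this window.

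Genes that work with the family were counted from lists. No gene of the related lists was called between genotypes, with or without the replicate block. Between experiments, choroid plexus markers were higher in experiment 2 as given above, and Ucp2, an uncoupling carrier of the same family under another symbol, was at 58.4, 117, 48.3 and 95.7 CPM and rose by 0.98 ± 0.12 (SE, limma adjusted p = 0.00501). Ucp3, Mtch1 and Mtch2 were not called, so 1 of 4 such genes rose and the median was 0.24. The part of the choroid plexus in the Ucp2 value was not tested. The outer- and inner-membrane import route of carriers split: of 11 genes, Tomm40, Timm8b and Timm10b rose while Tomm20 (-0.38) and Tomm70a (-0.58), receptors on the mitochondrial surface, fell. Of 20 other mitochondrial membrane transporters, 4 rose, the pyruvate carrier subunits Mpc1 (0.39) and Mpc2 (0.31) and the porins Vdac2 (0.35) and Vdac3 (0.33), and 1 fell, Abcb10 (-0.32). Of the 4 malate-aspartate shuttle enzymes, Mdh1 (0.37) and Mdh2 (0.24) rose and 0 fell. Of 16 citrate cycle enzymes, Sdhc (0.47), Sucla2 (0.28) and Sdhb (0.26) rose and Ogdh (-0.22) fell. The share of all genes called in this comparison was 23.7%, and nothing is read as particular to these lists.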

How the data were processed

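The deposited values are log2 of CPM with 0.5 added to the reads and 1 to the library total, a form worked out from the values, with 1 column for each of the 4 libraries. The submitters' processing notes name HISAT2 2.1.0, SAMtools 1.3, HTSeq 0.9.1, R 4.0.5, limma 3.46.0 and the build mm10, with no roles. Whole reads could be recovered for 100% of the values within 0.001. The 17 spike-in rows were left out. Genes at or above 1 CPM on average were tested with limma 3.58.1 (R 4.3.3, empirical Bayes with a trend, two-sided, Benjamini-Hochberg threshold 0.05) on log2(CPM + 1), a scale that understates changes of low genes. Genotype was fitted alone; the experiment, and both as a replicate block, were fitted separately. The labels tie replicate number to experiment, and deviations of same-numbered libraries from their genotype mean correlated at 0.719, so the block pairs them. Merged exon lengths, principal transcripts and their GC content came from GENCODE M21, promoters from RefSeq. The fit was also run on simulated counts drawn with no difference between experiments, which does not show how it behaves with one. The libraries of a genotype were not copies of each other (chi-square per gene 52.1 and 30.3). The members, lists and alternatives were chosen with earlier results of these data known. Chosen to be named were the members called in any fit (up to 10 by size). Also chosen were up to 4 highest and 4 lowest genotype differences among members whose groups did not overlap (1 was lower). Slc25a3, Slc25a4, Slc25a5, Slc25a12, Slc25a13, Slc25a14, Slc25a18, Slc25a22, Slc25a23, Slc25a25, Slc25a27 and Slc25a46 were chosen whatever their values. Slc25a14 and Slc25a27 are given as ranges, and not every test value of the chosen members is printed. Other pseudocounts, filters, scalings and left-out libraries were tried. 1 member counted among the 42 is not reported here by name or labelled in a figure.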

Additional observations from a re-analysis of the deposited data

How the results depend on the processing

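Each group has 2 pools, and members under 10 CPM rest on few reads. 0 members were called by genotype under any alternative run, and with the replicate block 2 genes were (also 2 with the block and quantile normalization, or the block and the length trend removed). On its own the replicate block changed no other call among the members, and added to quantile normalization it lost Slc25a25 between experiments (limma adjusted p 0.0472 without and 0.0519 with the block). Leaving out each library gave 0 to 47 genes by genotype (47 without TCRb-/- replicate 1) and a member median of -0.0018 to 0.058. Between experiments, leaving out each library gave 5 to 8 members and 1406 to 3390 genes (1406 without TCRb-/- replicate 1, 1823 without TCRb-/- replicate 2, 1637 without WT replicate 1) and a member median of -0.058 to 0.051. The fits with 3 libraries assume that the lone library varies like the other group. Without the mean-variance trend 629 genes and 2 members were called. With the length trend removed, chosen after seeing the data, 1813 genes were called, and 2039 with the replicate block as well. The member median between experiments, -0.023, became 0.067 with a filter at 10 CPM, 0.039 with quantile normalization and 0.037 with the length trend removed, the last 2 alike with the replicate block. Values near 0 changed sign. By genotype, with the length trend removed (with or without the block), Slc25a12 became 0.0056, Slc25a14 -0.0077, Slc25a27 -0.0011 and Slc25a4 -0.0031. Slc25a27 became -0.0028 with median-of-ratios scaling and Slc25a4 -0.060 with quantile normalization, with or without the block. Between experiments Slc25a27 became 0.0023 with quantile normalization and 0.037 with the length trend removed, with or without the block. Over the left-out libraries the genotype difference ranged from -0.18 to 0.15 for Slc25a12, -0.062 to 0.093 for Slc25a14, -0.11 to 0.43 for Slc25a18, -0.075 to 0.12 for Slc25a22, -0.22 to 0.28 for Slc25a23, -0.20 to 0.19 for Slc25a25, -0.043 to 0.047 for Slc25a27, -0.20 to 0.041 for Slc25a3, -0.12 to 0.15 for Slc25a4 and -0.16 to 0.13 for Slc25a5. The cause of these shifts was not tested.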
